A study of Mchenga conophoros and Petrotilapia sp. 'chitimba' with 16 samples.

Results

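The loci described here are 12040 transcribed intervals of the cichlid brain that match no annotated gene. They were chosen by a rule that used no measured difference: all assembled loci whose comparison with the annotation ended in the class "unknown, intergenic" (class code u) and that had at least 1 count in any library. They make up 12040 of the 61384 loci in the deposited count table, and 2 further loci of that class had no count. The table also holds 30487 loci equal to an annotated transcript (called annotated below) and 12751 loci lying within introns, which serve as points of comparison.

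The 16 libraries came from whole brains of 8 adult male fish of 2 species, 4 Mchenga conophoros (MC) and 4 Petrotilapia chitimba (PC). Within each species 2 fish met their reflection for 15 min in their own tank, 2 were controls, and brains were taken at 90 min. The groups were MC control (fish 10 and 22), MC mirror (fish 9 and 21), PC control (fish 11 and 24) and PC mirror (fish 12 and 23). Fish 9 to 12 formed batch a and fish 21 to 24 batch b, so each batch held 1 fish of every group. Each fish gave an input library of total RNA and an IP library of RNA pulled down through phosphorylated ribosomal protein S6, and the study asked how the species and the mirror change these profiles. Inputs held 10073251 to 23594320 counts and IP libraries 1872019 to 11186928. Each group is 2 fish of a whole brain, and in such bulk RNA fewer cells of a type and less RNA per cell cannot be told apart.

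Genomes are transcribed outside annotated genes as well as within them. Intergenic RNA includes long noncoding RNAs, untranslated ends and genes that an annotation lacks, reads from repeats, and stray transcription or residual DNA. A transcript assembler can give a strand to a locus from unstranded reads when reads cross a splice junction, so a locus with a strand is usually spliced and one without a strand usually is not. Phosphorylated S6 marks ribosomes of recently active neurons, so the IP is built to recover RNA bound to those ribosomes, and noncoding RNA may be carried along or left behind.

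Most of these loci were short, without a strand and faint. A strand was assigned to 1262 (699 plus, 563 minus), and 10778 had none. Loci with a strand had a median length of 1741 bases, those without one 384 bases, and annotated loci 6426 bases. Of all 12040, 9464 lay on chromosome sequences and 2576 (21.4%) on unplaced scaffolds, against 19.2% of all loci in the table. None overlapped an annotated locus. The median distance to the nearest one was 7922 bases, with 1795 loci closer than 2000 bases and 1349 farther than 50000 bases. The mean input level was at or above 1 CPM, a count divided by its library total and scaled to 1000000, in 1960 loci, above 10 CPM in 283 and above 100 CPM in 38. Median levels were 0.867 CPM with a strand and 0.274 CPM without. A count was found in all 16 libraries for 95 loci and in a single library for 2933.

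Summed over all loci, unannotated transcription took a share of reads that varied more between fish than between fractions. In the inputs of MC fish 10, 22, 9 and 21 it was 9.30, 9.03, 7.5 and 10.2% of counts. In the inputs of PC fish 11, 24, 12 and 23 it was 8.13, 2.55, 2.33 and 7.88%. PC fish 24 and 12, from different batches and conditions, stood far below the other 6. In IP the shares were 9.58, 12.2, 4.34 and 9.72% in MC and 7.48, 4.09, 4.81 and 3.86% in PC, in the same order of fish. IP and input did not differ in a fixed direction: IP was higher in 4 fish and lower in 4 (mean difference -0.111 percentage points, SD 2.55, n = 8, exact sign-flip test, two-sided p = 0.898). PC minus MC was -3.79 points in input (exact permutation test, two-sided p = 0.0857, Benjamini-Hochberg p = 0.186) and -3.90 points in IP (the same p), where 4 fish against 4 cannot go below 0.0286. By batch the species differed by -3.17 (a) and -4.41 (b) points in input and by -0.81 and -6.98 points in IP. Mirror and control fish differed by -0.267 points in input (exact permutation p = 0.857), with opposite signs in batch a (-3.81) and batch b (3.27). In IP they differed by -2.65 points (exact permutation p = 0.314), with -3.96 in batch a and -1.35 in batch b.

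**Figure D1:**
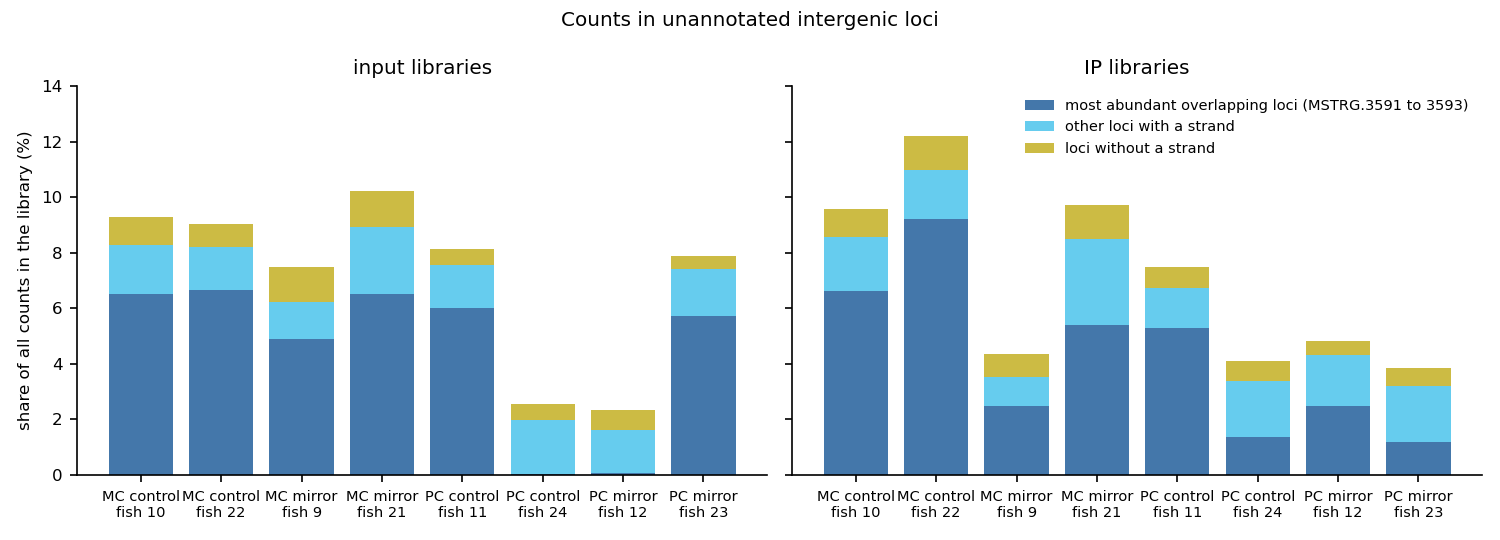
Share of all counts in unannotated intergenic loci in each library (y axis, percent), split into the most abundant overlapping loci, other loci with a strand and loci without a strand. The dark segment is nearly missing in the inputs of PC fish 24 and 12 and reaches 9.21% in the IP library of MC control fish 22.

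A single interval carried most of these reads. MSTRG.3591 (minus strand), MSTRG.3592 (plus) and MSTRG.3593 (minus) overlap at NC_036781.1:27477167-27483312. Together they held 6.5, 6.66, 4.90 and 6.53% of all counts in the MC inputs of fish 10, 22, 9 and 21. In PC inputs of fish 11, 24, 12 and 23 they held 6.03, 0.0540, 0.0809 and 5.72%. The same fish 24 and 12 had 1.36 and 2.47% in IP, so in both the interval took a larger share of the IP library than of the input. The other IP values were 6.60, 9.21, 2.48 and 5.39% in MC fish 10, 22, 9 and 21, and 5.31 and 1.17% in PC fish 11 and 23. Without this interval the share of unannotated loci was 2.10 to 3.70% in inputs and 1.86 to 4.33% in IP, with PC fish 24 and 12 at 2.49 and 2.25% in input. That share was higher in IP in 7 of 8 fish (mean difference 0.199 points, SD 0.441, exact sign-flip p = 0.219).

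Counts of this interval were divided between the strands in an uneven way. MSTRG.3591 and MSTRG.3592 had 358675 and 334498 counts in the input of MC fish 10, but 670474 and 0 in that of MC fish 22. Fish 21 had 363105 and 348740 in input, and 491441 and 0 in IP. Values per strand at overlapping loci are therefore uncertain. In all, 241 of the 12040 loci overlapped another one, in 91 clusters, and the summed values of the clusters named below are given beside them.

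**Figure D2:**
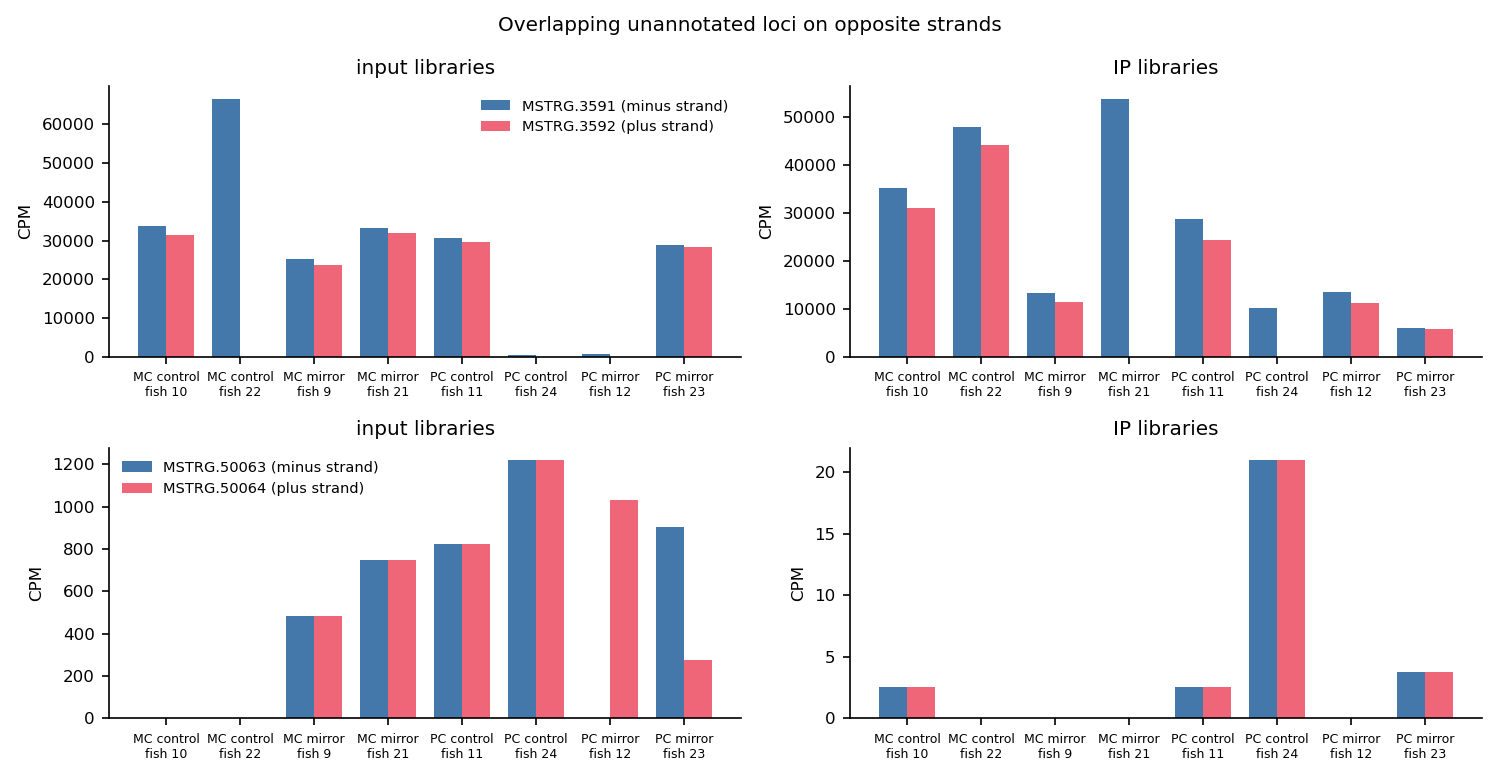
CPM of overlapping loci on opposite strands in each library (top, MSTRG.3591 and MSTRG.3592; bottom, MSTRG.50063 and MSTRG.50064; inputs left, IP right). In most libraries the bars of a pair are nearly equal, and in some, such as the input of MC control fish 22 in the top row, 1 strand holds all counts.

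The next most abundant loci all had a strand, and several were higher in PC. Annotated loci of high level leaned to PC as well. Above a mean log2 CPM of 4, 1537 of them had an edgeR adjusted p under 0.05 in input, 1286 higher in PC. MSTRG.14606 (NC_036786.1:41943463-41946873, 1951 bases downstream of LOC101466654) had a mean of 1574 ± 262 CPM in MC inputs and 1880 ± 460 CPM in PC inputs (SD, n = 4). MSTRG.33839 (NC_036796.1:33080847-33082224, 2111 bases downstream of LOC101481754) stood at 435, 593, 420 and 576 CPM in MC inputs (fish 10, 22, 9 and 21) and 809, 1227, 1167 and 1369 CPM in PC inputs (fish 11, 24, 12 and 23). The species did not overlap, and the fitted log2 fold change was 1.51 (SE 0.14, edgeR adjusted p = 0.00070). MSTRG.31169 (NC_036795.1:16127219-16128429) went from 365, 683, 289 and 472 CPM to 702, 1270, 1004 and 1335 CPM (log2 1.63, SE 0.14, edgeR adjusted p = 0.00069). MSTRG.21739 lies 2028 bases upstream of apoc2, which encodes an apolipoprotein that activates lipoprotein lipase. It had 343, 367, 328 and 334 CPM in MC and 542, 924, 653 and 1044 CPM in PC inputs, again without overlap (log2 1.5, SE 0.19, edgeR adjusted p = 0.0018). MSTRG.13647 (NC_036786.1:25529546-25531591) had the steepest rise among the abundant loci outside the overlapping ones, from 105 ± 42 CPM in MC to 596 ± 179 CPM in PC (SD, n = 4, log2 2.88, SE 0.22, edgeR adjusted p = 0.00051). MSTRG.51207, on a scaffold with no annotated locus, leaned the other way, with 1932, 1264, 603 and 3532 CPM in MC and 677, 476, 178 and 402 CPM in PC, and missed the threshold (log2 -1.74, edgeR adjusted p = 0.064). The 10 loci with the highest mean in inputs and the 10 in IP shared 7, so the abundant loci were largely common to both fractions.

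In the IP libraries far fewer unannotated loci were seen. Inputs held a count for 4764 to 5778 of them and IP libraries for 374 to 1285. At a common depth of 1872019 counts the expected number was 3773 ± 603 in input and 760 ± 259 in IP (SD, n = 8), lower in IP in 8 of 8 fish (two-sided p = 0.00781 by an exact sign-flip test, which can go no lower, Benjamini-Hochberg p = 0.0609 over 39 such tests). Annotated loci thinned out too, from 49.0 to 60.8% of them detected in inputs to 7.60 to 22.5% in IP. Of the 12040 loci, 11725 had a count in some input, 3544 in some IP library and 315 in IP alone, of which 281 in 1 library. Among the loci present in all 8 inputs, 361 of 1255 unannotated ones (28.8%) and 2228 of 12318 annotated ones (18.1%) had no count in any IP library.

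At equal input level, the mean share of loci found in IP was higher for unannotated than for annotated loci. Among loci at 10 to 30 CPM in the input of a fish, 47.1% of unannotated and 36.5% of annotated loci had a count in its IP library, with the unannotated share higher in 8 of 8 fish (mean difference 10.6 points, SD 4.90, exact sign-flip p = 0.00781, Benjamini-Hochberg p = 0.0609). At 1 to 3 CPM the shares were 12.6 and 9.98% (higher in 6 of 8 fish, exact sign-flip p = 0.250). At 3 to 10 CPM intronic loci stood at 25.5% and unannotated ones at 24.5%. Intronic loci had 10.5% at 1 to 3 CPM and 52.8% at 10 to 30 CPM (unannotated higher in 8 of 8 and 2 of 8 fish, exact sign-flip p = 0.00781 and 0.211). Loci with a strand were found in IP more often than those without at 1 to 3 CPM, 21.9 against 11%, in 8 of 8 fish (exact sign-flip p = 0.00781, Benjamini-Hochberg p = 0.0609). At 10 to 30 CPM these shares were 46.6 and 48.8% (exact sign-flip p = 0.531). Annotated loci at these levels were longer (median 11200 to 12618 bases at 10 to 30 CPM, against 1960 to 2705), and the part of length in the difference was not tested. Unannotated loci are known only from assembled reads, and 315 of them had counts in IP alone. Their place in the list, and their strand, may therefore not be independent of detection in IP. The part of this in the differences was not tested either.

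**Figure D3:**
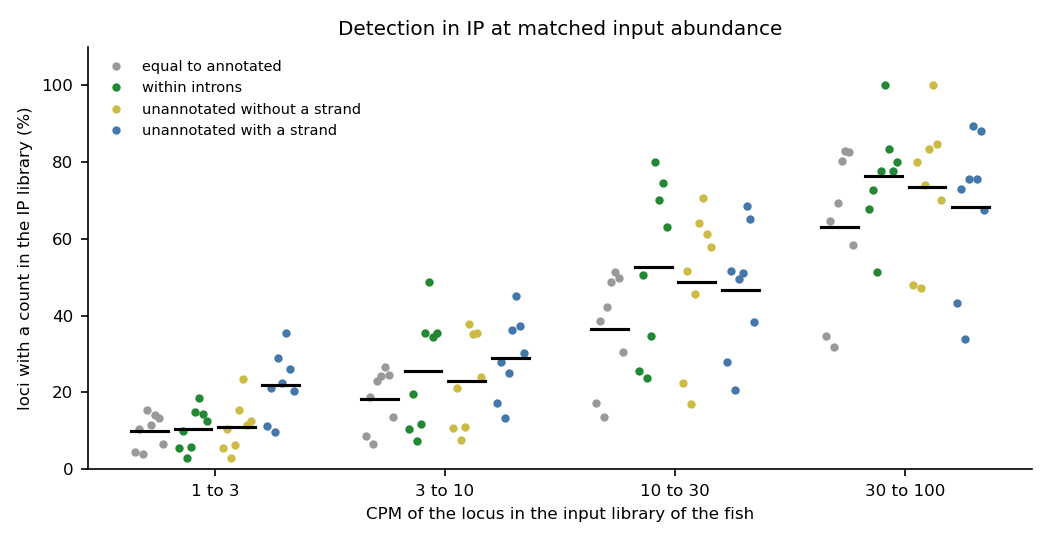
Share of loci with a count in the IP library (y axis, percent) by their CPM in the input of the same fish (x axis), 1 point per fish, with the mean over 8 fish as a black line. Shares rise with input level in every class, and unannotated loci sit at or above annotated ones in the means of all 4 ranges.

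Locus by locus, IP against input called 1627 of 3875 unannotated loci tested (42.0%), 9 higher and 1618 lower in IP, at an edgeR adjusted p under 0.05, against 57.8% of all loci tested. Their median fitted log2 fold change was -4.15, and that of all loci -4.97. With fish as a replicate block, which pairs the fractions, only 5 unannotated loci and 181 loci of all were called, all 5 lower. Leaving out any 1 fish left 858 to 1056. Among loci with a mean log2 CPM above 7, 29 were unannotated, and 3 were higher and 2 lower. The balance of direction depended on the fit. The authors' deposited DESeq2 table had 547 unannotated loci higher and 1687 lower in IP at an adjusted p under 0.05. The cause of this gap was not tested.

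The loci lower in IP by the largest fold had no IP count at all. MSTRG.22808 (NC_036791.1:8595125-8597405, no strand) had 301, 186, 440 and 166 counts in MC inputs and 143, 115, 341 and 133 in PC inputs, and 0 in all 8 IP libraries. Taking 3 counts over the IP libraries as the limit, its log2 ratio of mean CPM was at most -8.33. MSTRG.1363 (NC_036780.1:22413727-22417457, 764 bases upstream of acsf3, a mitochondrial fatty acid enzyme) and MSTRG.43420 (NC_036801.1:37944644-37949126, 205 bases downstream of pln, the regulator of the calcium pump of the sarcoplasmic reticulum) had 91 to 373 and 76 to 335 counts in inputs and 0 in IP. The 6 steepest falls were all of this kind (edgeR adjusted p = 0.0012 each). With the replicate block the adjusted p was 0.156 to 0.158 and the fold stayed as large (MSTRG.22808, -10.38 against -10.41 on the log2 scale). With fish as a random block in limma-voom the adjusted p was 1.7e-05 to 2.0e-05.

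The 9 loci higher in IP came from 3875 unannotated loci tested. In the same fit 65 of 17054 annotated and 9 of 4731 intronic loci were higher in IP. Of the 9 unannotated ones, 5 met the naming rule of a mean log2 CPM above 1 and a higher CPM in IP in 8 of 8 fish. MSTRG.5219 lies at NC_036782.1:28421835-28422728, 327 bases upstream of ppp2r5b, which encodes a regulatory subunit of protein phosphatase 2A. It had 795, 641, 925 and 370 counts in MC inputs and 572, 561, 1657 and 1051 in PC inputs. In IP it had 527, 2393, 1396 and 4380 counts in MC and 1228, 692, 2369 and 2283 in PC (log2 1.84, SE 0.50, edgeR adjusted p = 0.010). With the replicate block the fold was 1.81 and the adjusted p 0.171, and the adjusted p was 0.0056 in limma-voom with fish as a random block and 0.0059 in DESeq2. Its neighbour ppp2r5b had 496 to 1204 counts in inputs and 0 to 611 in IP. MSTRG.14546 (NC_036786.1:41231579-41233717), among the 10 most abundant loci in IP, rose from 248 ± 121 to 661 ± 179 CPM in MC and from 594 ± 160 to 1779 ± 471 CPM in PC (SD, n = 4, log2 1.12, SE 0.31, edgeR adjusted p = 0.011, and 0.158 with the replicate block). DESeq2 gave it an adjusted p of 0.079, and limma-voom with fish as a random block 0.028. MSTRG.45013 (log2 2.15, SE 0.65, edgeR adjusted p = 0.016, block 0.230, limma-voom 0.0072) and MSTRG.40890 (log2 1.52, SE 0.59, edgeR adjusted p = 0.044, block 0.315, limma-voom 0.025) were the others. In the authors' deposited DESeq2 table the adjusted p was 4.1e-05 for MSTRG.5219, 0.00052 for MSTRG.14546, 3.2e-05 for MSTRG.45013 and 0.00063 for MSTRG.40890. For MSTRG.49204, described below, it was 0.103, and limma-voom gave 0.128. MSTRG.45013 went from 40.3 to 61.6 CPM in fish 22 and from 12.8 to 163 CPM in fish 21, and MSTRG.40890 in IP ranged from 49.4 CPM in fish 23 to 552 CPM in fish 10. MSTRG.40890 lost its call whichever fish was left out.

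MSTRG.49204, a plus-strand locus of 36246 bases at NW_020192714.1:37085-73330, was ruled by 1 library. It had 80326 counts in the IP library of MC mirror fish 21, or 8781 CPM, and 147 to 344 counts in the other 7 IP libraries (15.6 to 109 CPM). Inputs held 92 to 272 counts (6.95 to 24.9 CPM), and fish 21 had 207 there. CPM was higher in IP in 8 of 8 fish (log2 2.64, SE 0.71, edgeR adjusted p = 0.0096). The adjusted p was 0.142 with the replicate block, and leaving out 1 fish moved the fold change between 1.34 and 2.95 on the log2 scale.

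Between the species, unannotated loci with a strand were called more often than those without. In inputs, 247 of 3508 loci tested (7.04%) were called, 147 higher in PC and 100 higher in MC, against 10.4% of all loci. By strand, 150 of 764 with a strand (19.6%) were called, 101 of them higher in PC, and 97 of 2744 without (3.53%), 46 higher in PC. Annotated loci were called in 12.7% and intronic loci in 2.47%. Of 2148 annotated loci called, 1816 were higher in PC, and of 110 intronic ones 27. Loci with a strand were also the more abundant. Below a mean log2 CPM of 0, which held 1215 of the 2744 without a strand, no unannotated or annotated locus was called. At 0 to 2, the called shares were 14.4% with a strand, 4.54% without and 3.98% for annotated loci. At 2 to 4 they were 22.8, 12.7 and 7.26%, in the same order. Above 4 they were 48.1, 16 and 30.01%.

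The number of species calls depended on the fit, and the cause was not tested. The share of all loci called is not given for the other fits, so these counts do not set unannotated loci against the rest. A fit over all 16 libraries, which shares 1 estimate between inputs and IP, called 0 of 3875 (524 at an unadjusted p under 0.05), while DESeq2 on the inputs called 607. Leaving out 1 fish gave 101 to 349 calls. The count was 101 to 130 without any of fish 24, 23, 11, 12, 10 or 22, 270 without MC fish 21 and 349 without MC fish 9. Batch a alone called 107 and batch b alone 16.

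**Figure D4:**
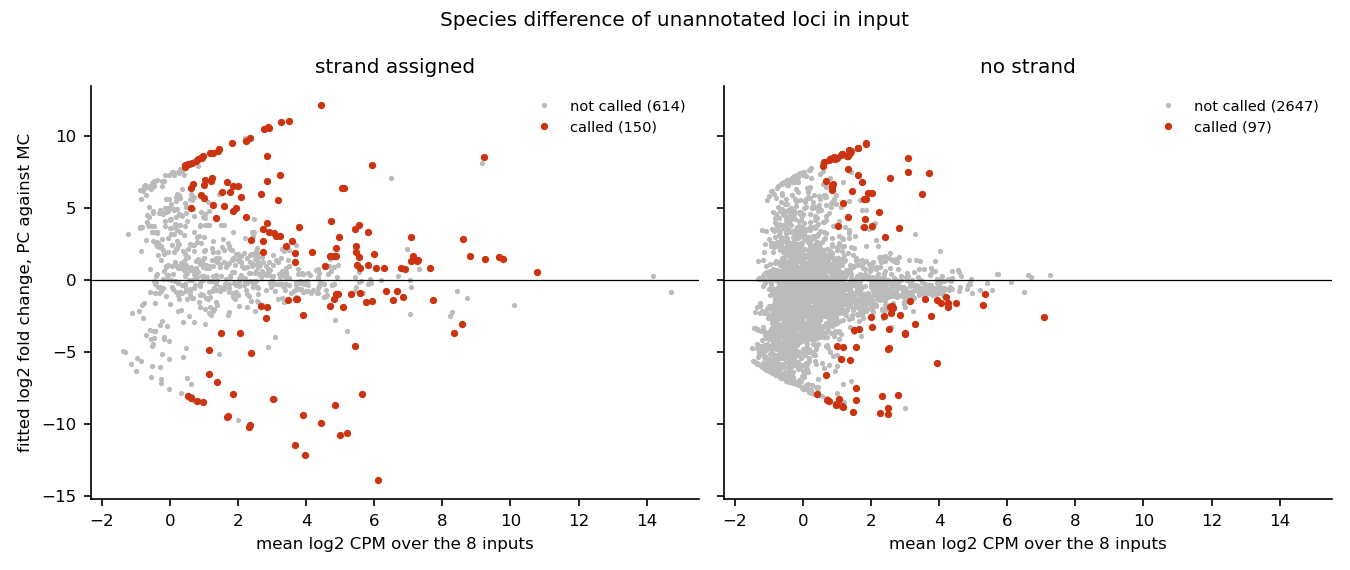
Fitted log2 fold change of PC against MC (y axis) by mean log2 CPM over the 8 inputs (x axis) for unannotated loci with a strand (left) and without (right), with called loci in red. Called loci number 150 of 764 with a strand and 97 of 2744 without.

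Loci without a strand leaned as a class towards MC. Loci without a strand took 0.835 to 1.29% of counts in MC inputs and 0.482 to 0.711% in PC inputs, with no overlap (exact permutation test, two-sided p = 0.0286, the smallest possible, Benjamini-Hochberg p = 0.0929). At the common depth 3624 ± 498 of them were expected in MC and 2627 ± 332 in PC inputs (SD, n = 4, exact permutation p = 0.0571). Of loci with a strand, 579 ± 39.5 were expected in MC and 716 ± 54.1 in PC, without overlap (exact permutation p = 0.0286, Benjamini-Hochberg p = 0.0929). Their share of counts outside the most abundant interval was 1.76 ± 0.47% in MC and 1.67 ± 0.192% in PC inputs (exact permutation p = 0.771). The share of counts within introns moved with the loci without a strand, at 1.22 to 2.11% in MC and 0.566 to 0.767% in PC inputs, and its part in the result was not tested. In IP the shares of loci without a strand were 1.06 ± 0.197% in MC and 0.656 ± 0.114% in PC (SD, n = 4, exact permutation p = 0.0286, Benjamini-Hochberg p = 0.0929). Cell type markers moved between the species too. Summed myelin markers (2 of 4 matched) were at 827 to 1121 CPM in MC and 133 to 639 CPM in PC inputs, and microglial markers (3 of 4) at 393 to 539 and 236 to 383 CPM. Radial glial markers (3 of 5) were at 4365 to 5724 CPM in MC and 6513 to 10937 CPM in PC inputs. Neuronal markers (2 of 7) were at 2514 to 3555 CPM in MC and 1534 to 2685 CPM in PC inputs, with overlap. Endothelial markers (2 of 4) were at 15.3 to 23.8 CPM in MC and 4.83 to 14.4 CPM in PC inputs. The part of these markers in the species differences was not tested.

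Some loci were read in 1 species alone. With at least 10 counts in all 4 inputs of a species and 0 in all 4 of the other, 21 unannotated loci were found in MC alone, of 877 that met the count minimum there (2.39%). In PC alone there were 57 of 1056 (5.40%). Annotated loci gave 7 of 11227 (0.0623%) in MC and 64 of 13207 (0.485%) in PC. Intronic loci, also outside annotated exons, gave 9 of 1017 (0.885%) in MC and 3 of 598 (0.502%) in PC. PC inputs were deeper, with 10940859 to 23594320 counts against 10073251 to 10904974 in MC. Under this rule 10 counts are easier to reach in PC and 0 in MC, and the part of depth was not tested. Of the 78, 12 in MC and 23 in PC lay on scaffolds, and 9 overlapped another unannotated locus, of which 7 lost the pattern once the cluster was summed. In RNA counts, reasons for a count of 0, such as a sequence missing from a genome or one not transcribed, cannot be told apart.

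MSTRG.48684 was the most abundant locus read in MC alone. This plus-strand locus of 37450 bases at NW_020192618.1:93834-131283, 25587 bases upstream of LOC101486692, had 3330, 415, 543 and 2376 counts in the MC inputs of fish 10, 22, 9 and 21, and 0 in the 4 PC inputs. With 3 counts over the PC inputs as the limit, its level was at least 11.80 higher in MC on the log2 scale (edgeR adjusted p = 0.0021). Summed with the overlapping MSTRG.48685, the log2 fold change was -14.17 (SE 1.36, edgeR adjusted p = 0.0015). Its IP libraries held 459, 1668, 1 and 5277 counts in MC and 0 in PC, and the overlapping MSTRG.48685 had 0 in all PC libraries too. Within MC, fish 10 and 21 were high and fish 22 and 9 low.

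A second interval of this kind lies at NC_036780.1:1332697-1337688, at its nearest 25265 bases downstream of LOC112435146. It holds 4 overlapping loci, MSTRG.35 to MSTRG.38. Summed, they had 4309, 794, 703 and 3878 counts in MC inputs and 13, 0, 0 and 0 in PC inputs (log2 -11.53, SE 1.35, edgeR adjusted p = 0.0018). In IP they had 866, 1485, 46 and 7069 counts in MC and 0 in PC (edgeR adjusted p = 0.0017). As at MSTRG.48684, fish 10 and 21 were the high ones in input.

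Among loci read in PC alone, MSTRG.45588 (NW_020192379.1:572463-575167, plus strand) had 551, 361, 1045 and 611 counts in the inputs of fish 11, 24, 12 and 23 and 0 in MC, at least 9.07 higher on the log2 scale (edgeR adjusted p = 0.00036). It overlaps loci on the other strand, and the cluster summed had 28, 23, 0 and 0 counts in MC and 612, 511, 1174 and 684 in PC (log2 8.46, SE 0.41, edgeR adjusted p = 0.00013). In IP the cluster had 4 counts in MC fish 10, 0 in the other MC fish and 0, 152, 2 and 555 in PC fish 11, 24, 12 and 23. MSTRG.4121 (NC_036782.1:3647294-3648442, plus strand, no overlap) had 229, 183, 363 and 357 counts in PC inputs and 0 in MC, and 0, 163, 119 and 693 in PC IP libraries (at least 7.89 higher, edgeR adjusted p = 0.00083). MSTRG.44537 (NW_020192342.1:365206-375484) had 44, 217, 325 and 360 counts in PC inputs and 0 in MC (at least 7.51 higher, edgeR adjusted p = 0.0014). Of the loci read in PC inputs alone, 33 of 57 had IP counts in PC and 5 in MC. Of those read in MC inputs alone, 6 of 21 had IP counts in MC and 1 in PC.

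Other species calls vanished when strands were joined. MSTRG.48102 (plus) had 127, 137, 260 and 290 counts in PC inputs and 0 in MC, and the overlapping MSTRG.48103 (minus) 149, 99, 150 and 81 in MC and 0 in PC. Both lie downstream of tfr2, the gene of a transferrin receptor, and each alone passed the test in the opposite direction. Their sum did not pass the test (log2 0.44, SE 0.34, edgeR adjusted p = 0.451). Likewise MSTRG.32783, with 0 counts in MC and 49, 220, 745 and 551 in PC inputs, overlaps MSTRG.32782, and their sum was 603, 5, 4 and 144 in MC against 458, 583, 1031 and 1605 in PC (log2 2.17, SE 1.12, edgeR adjusted p = 0.257). Of the 247 called loci, 36 overlapped another one, in 26 clusters, and 20 of these clusters were called when summed.

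Annotated neighbours of called loci were called about as often as other annotated loci. The nearest annotated locus was tested for 133 of the 247, and it was called in 18 (13.5%), 12 of them in the same direction. For loci not called the share was 12.2%, and 12.7% of all annotated loci were called.

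**Figure D5:**
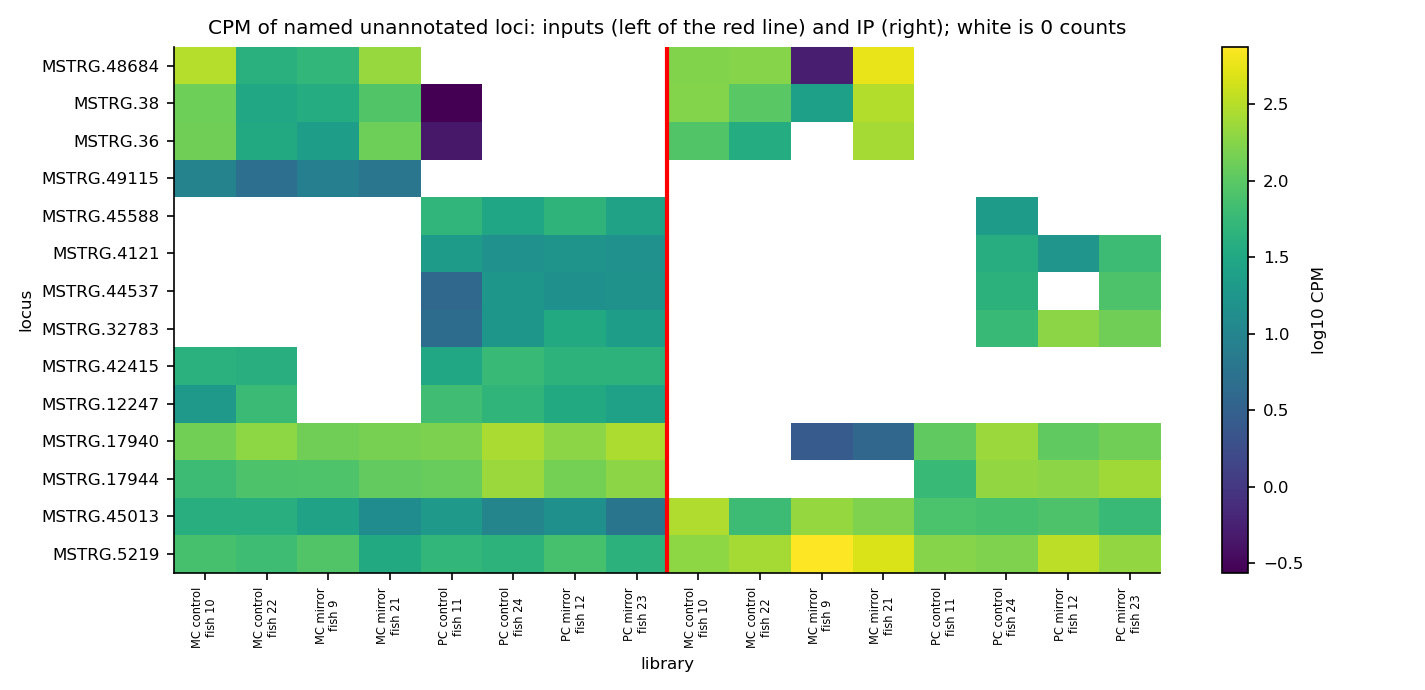
CPM (colour, log10) of 14 named unannotated loci (rows) in the 8 inputs and 8 IP libraries (columns), with white for 0 counts. The first 4 loci are read in MC inputs with 0 to 5 counts in any PC input, and the next 4 in PC inputs alone. Of these, MSTRG.45588 and MSTRG.32783 belong to overlapping clusters that have counts in MC inputs. MSTRG.17940 and MSTRG.17944 are read in all inputs but near 0 in MC IP libraries.

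In IP libraries few loci could be tested between the species. Of 872 unannotated loci, 5 were called (0.573%), 2 higher in PC and 3 in MC, against 0.815% of all loci. A fit over all 16 libraries also called 5, all of them higher in PC, so these were not the same 5 loci. Without a batch term 0 were called (229 at an unadjusted p under 0.05), without PC fish 24 also 0, without PC fish 11, 12 or 23 each 2, and DESeq2 called 51. Those named from the fit of IP libraries alone were MSTRG.48684, MSTRG.49204, which rests on the library of fish 21, and MSTRG.17944. MSTRG.3591 was called too, lower in PC (log2 -0.998, SE 0.23, edgeR adjusted p = 0.0032). So was its summed interval (log2 -0.85, SE 0.17, edgeR adjusted p = 0.00031). The species overlapped there, with 2.48 to 9.21% of IP counts in MC and 1.17 to 5.31% in PC. Of the 5 calls of that fit, 4 overlapped another locus, and 3 of their 4 clusters were called when summed. MSTRG.17944 summed with its partner had an adjusted p of 0.111. With fish 21 left out the log2 fold change of MSTRG.49204 went from -3.45 to -0.67.

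MSTRG.17944 and its neighbour MSTRG.17940 were the 2 of 3875 loci called in the species difference of IP enrichment, where 0.0372% of all loci were called. Both are plus-strand loci at NC_036788.1:10494871-10497529 and NC_036788.1:10492620-10493915, downstream of LOC101483009, which itself had 0 to 4 counts in any library. MSTRG.17944 had 671, 834, 891 and 1200 counts in MC inputs and 1294, 2740, 3197 and 4455 in PC inputs. Its IP libraries held 0 in all 4 MC fish and 410, 887, 1292 and 2666 in PC. MSTRG.17940 had 1464, 1958, 1416 and 1623 counts in MC inputs, and 0, 0, 5 and 34 in MC IP libraries. In PC it had 1723, 3344, 4177 and 6597 in inputs and 751, 951, 758 and 1520 in IP. The fitted differences were 12.76 and 9.15 on the log2 scale (edgeR adjusted p = 0.042 each). That of MSTRG.17944 rests on 0 counts in all 4 MC IP libraries, so its size has no measured upper limit. Other loci leaned the same way, with median differences of 1.23 for unannotated, 2.03 for intronic and 0.54 for annotated loci. All 9 annotated loci called were also higher in PC. With the replicate block the adjusted p was 0.0096 for MSTRG.17944 and 0.065 for MSTRG.17940.

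Leaving out any 1 fish removed both calls (lowest adjusted p 0.103), with the differences at 12.23 to 12.89 for MSTRG.17944 and 8.85 to 9.30 for MSTRG.17940. Summing MSTRG.17944 with the overlapping MSTRG.17945, which had 17 and 5 counts in the IP of MC fish 10 and 22, gave an adjusted p of 0.137. A further locus of the same stretch, MSTRG.17948, named after its values were seen, had 880, 1185, 791 and 1065 counts in MC inputs and 0, 2122, 0 and 5 in MC IP libraries. Its PC IP libraries held 433, 765, 890 and 3878. Fish 22 had no count of MSTRG.17940 or MSTRG.17944 in IP but many of MSTRG.17948.

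Very few unannotated loci were called between mirror and control fish. In inputs 2 of 3508 were called (0.0570%), against 3 of 28742 loci of all classes (0.0104%). In IP 1 of 872 was called (0.115%), against 0.0873% of all loci. None of these 3 unannotated loci separated mirror from control fish over both species. The IP call was MSTRG.3592, whose counts switch between strands. The whole overlapping interval had a fitted log2 fold change of -0.88, mirror against control (SE 0.16, edgeR adjusted p = 5.9e-05). The interval took 6.60, 9.21, 5.31 and 1.36% of IP counts in control fish 10, 22, 11 and 24. In mirror fish 9, 21, 12 and 23 it took 2.48, 5.39, 2.47 and 1.17%, so the groups overlapped. Neither batch alone called MSTRG.3592 or MSTRG.3591, and DESeq2 gave MSTRG.3592 an adjusted p of 0.801. Without PC fish 11 or MC fish 22 the sign for MSTRG.3592 turned, to 6.87 and 5.62.

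The calls in inputs came from MC fish alone. MSTRG.50063 and MSTRG.50064 are the minus and plus strands of NW_020193002.1:77084-78179, and their sum was 0 and 0 counts in the MC controls (fish 10 and 22) and 10153 and 16330 in MC mirror fish 9 and 21. PC fish had 17997 and 29713 as controls and 22766 and 27760 after the mirror, so the MC controls alone had none. The sum was called for the mirror (log2 8.02, SE 0.25, edgeR adjusted p = 3.0e-05) and for the species (log2 9.05, SE 0.25, edgeR adjusted p = 1.2e-05). Both fitted folds rest on the 0 counts of the MC controls, so their size has no measured upper limit. In CPM the sum was 971 and 1497 in MC mirror inputs, 1645 and 2437 in PC controls and 1032 and 1177 in PC mirror inputs. In IP it had 0 to 178 counts, so the locus was nearly missing from IP in the fish where it was abundant in input.

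MSTRG.42415 showed the reverse. This minus-strand locus at NC_036801.1:20658131-20661004, 568 bases upstream of LOC101484540, had 451 and 408 counts in MC control inputs and 0 and 0 in MC mirror inputs. PC inputs had 349 and 703 as controls and 996 and 1076 after the mirror, and all 8 IP libraries had 0 (log2 -5.92, SE 0.42, edgeR adjusted p = 0.023). The size of this fold rests on the 0 counts of the MC mirror inputs. MSTRG.12247 (NC_036786.1:2557886-2559354, 188 bases downstream of LOC101468046) had the same pattern, 212 and 608 against 0 and 0 counts in MC, and missed the threshold (edgeR adjusted p = 0.077). The number of calls in inputs was 9 without MC mirror fish 9 or fish 21, 3 without MC control fish 10 or fish 22, 0 without PC control fish 11 or fish 24 and 1 without PC mirror fish 23. Each MC group is 2 fish, and whether the mirror effect in inputs differs between the species was not tested.

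The mirror effect on IP enrichment called 0 of 3875 unannotated loci in edgeR and 0% of all loci. An unadjusted p under 0.05 was found for 102 of these 3875, a share below 0.05. It was found for 1157 of 17054 annotated loci. DESeq2 called 75 unannotated loci, limma-voom 0 and the fit with the replicate block 2. The smallest p-values belonged to MSTRG.30813, MSTRG.50064 and MSTRG.40167 (edgeR adjusted p = 0.763 each). With the replicate block MSTRG.50064 was called (log2 -12.10, edgeR adjusted p = 0.00034). MSTRG.50064 had 0 counts in the inputs of MC control fish 10 and 22, so the size of this fold rests on those 0 counts. Its input counts and those of MSTRG.50063 were 22766 and 0 in PC fish 12, and 6474 and 21286 in PC fish 23. Summed with MSTRG.50063 it had a log2 difference of -13.27, and MSTRG.40167 summed with MSTRG.40168 one of -7.23 (edgeR adjusted p = 0.759 each, without the block). MSTRG.30813, 338 bases upstream of upf3a, a gene of nonsense-mediated decay, had 0, 0, 0 and 2 IP counts in MC, 0 and 0 in PC controls and 107 and 416 in PC mirror fish. Its inputs held 12, 84, 0 and 0 counts in MC and 33, 44, 139 and 101 in PC. The species difference of that mirror effect called 0 as well (123 at an unadjusted p under 0.05), against 0% of all loci, with 71 in DESeq2, 0 in limma-voom and 2 with the replicate block. Of 17054 annotated loci, 1240 were at that unadjusted level. MSTRG.6794, MSTRG.34073 and MSTRG.50401 had the smallest p (edgeR adjusted p = 0.677). MSTRG.6794 was at 318 to 520 counts in all inputs, at 339 and 881 in the IP of MC controls and at 0 in both MC mirror fish, while PC had 111 to 490.

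In the authors' deposited table for IP against input, 2234 of the 6319 unannotated loci with an adjusted p were under 0.05 (35.4%). The share of all loci was 44.6%. Of the 2234, 547 were higher and 1687 lower in IP, where the edgeR fit had called 9 higher and 1618 lower. In the authors' deposited table for the mirror effect on IP against input, 37 of 1520 were under 0.05 (2.43%), against 4.22% of all loci. In the authors' deposited table for the species difference of that effect the count was 49 of 946 (5.18%), against 6.63%. MSTRG.50064, with 0 counts in both MC control inputs, was among these 49 in the authors' deposited table (adjusted p = 0.0012), as was MSTRG.6794 (0.0090).

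As a check of the labelled tissue, neuronal markers (2 of 7 matched) were present in all inputs, at a summed level of 1534 to 3555 CPM. Of the pituitary list 1 of 8 genes matched a symbol, at 0 to 279 CPM in inputs. None of the muscle or red blood cell symbols matched a locus.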

How the data were processed

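RNA was sequenced from input and pS6 IP fractions of 8 fish. The authors deposited raw counts per assembled locus with class code, strand and coordinates, and the submitters' processing notes name cutadapt, HISAT2 and StringTie, with the build and tool versions not given in the sources used here. Tables of DESeq2 results deposited by the authors hold log2 fold changes and adjusted p-values, in which 100 was read as missing.

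CPM is a count divided by its library total, times 1000000. Tests used edgeR 4.0.16 in R 4.3.3 (TMM, filterByExpr, quasi-likelihood) over all loci, with species, condition and fraction groups plus batch; Benjamini-Hochberg adjusted p, over the loci of 1 comparison, was called under 0.05. The IP contrasts used all 16 libraries, species and mirror contrasts the 8 of a fraction. Alternatives were DESeq2 1.42.0, limma-voom 3.58.1, RLE factors, other filters, no batch term, each batch, each fish left out and fish as a replicate block. Input and IP share a fish per the labels, so they pair; correlations of their deviations were 0.17, 0.04, 0.52 and 0.21 (862 abundant loci). Shares and detection were compared over fish by exact tests, with detection computed for the smallest total. The scripts were tested on simulated counts. A limit of 3 counts stands for 0, and limits cover counting error only. With 2 fish per group, p-values measure at most the spread between these fish, and nothing states how they were reared. The edgeR p-values also borrow spread from other loci and can be small where fish differ widely, as at MSTRG.3592.

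Named loci are the 10 highest mean CPM in each fraction, the 6 highest and 6 lowest called fold changes per comparison (mean log2 CPM above 1, same sign in all fish or groups without overlap; with under 3 calls, the 3 smallest p), and the 5 most abundant read in 1 species. The loci, lists and tests were chosen with earlier results of these data known; summing overlapping loci, the strand split and the matched levels were added after seeing the data. Sequences are not used here.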

Additional observations from a re-analysis of the deposited data

Results flagged for a closer look

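In groups of 4 to 10 samples a single far value is found by chance in about 1 of 20 groups. At the common depth, the input of PC mirror fish 12 held 3905 unannotated loci, against 3118 to 3175 in the other 3 PC inputs. MSTRG.50064 and MSTRG.50063 each had 20.9 CPM in the IP library of PC control fish 24 and 0 to 3.75 CPM in the other 7. MSTRG.51101 had 1526 CPM in the input of MC mirror fish 21, against 35.2 to 528 CPM elsewhere, and 777 CPM in its IP library, against 6.36 to 283 CPM. MSTRG.49204 had 8781 CPM in the IP library of the same fish, against 15.6 to 109 CPM. The IP enrichment differed between the species by test at MSTRG.17944 (12.76 on the log2 scale) and MSTRG.17940 (9.15). The first value rests on 0 counts in all MC IP libraries.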

How the results depend on the processing

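Counts of called unannotated loci depended on the settings, and the cause was not tested. They stand without the share of all loci under the same setting, so they do not set unannotated loci against the rest. IP against input gave 1627 calls, 475 with at least 10 counts in 4 of 8 or 8 of 16 libraries, 529 and 298 in batches a and b, 5 with fish as a replicate block and 5 among abundant loci. The mirror effect on enrichment gave 0, then 1 without a low-count filter, 2 with the replicate block and 75 in DESeq2. The species difference of enrichment gave 2, then 0 and 0 by batch, 1 among abundant loci, 1 with overlapping loci summed, 18 in limma-voom and 109 in DESeq2. Its mirror term gave 0, then 2 with the replicate block and 71 in DESeq2, and was not run by batch. PC against MC in input gave 247, then 446 without a filter, 0 with all 16 libraries in one fit, 107 and 16 by batch and 607 in DESeq2. The mirror in input gave 2, then 31 without a filter, 0 with the stricter filter, 0 with all 16 libraries, 6 and 1 by batch and 14 in DESeq2. PC against MC in IP gave 5, then 8 with RLE factors, 1 without a filter, 0 with the stricter one, 0 without a batch term, 0 and 2 by batch and 51 in DESeq2. The mirror in IP gave 1, then 2 with RLE factors, 2 without a filter, 0 with the stricter one, 0 without a batch term, 0 with all 16 libraries, 0 and 0 by batch and 23 in DESeq2.

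Shares are in percentage points. IP minus input became 0.0300 without the most abundant unannotated locus, 0.0870 without the 10 most abundant and -0.193 without mitochondrial loci and the 10 most abundant loci of all (exact sign-flip p = 0.0469). PC minus MC became -0.763 and -1.62 in input under the last pair and -1.41 in IP under the last, all at exact permutation p = 0.0286 with the species not overlapping, against 0.0857 with all loci. In IP it was -0.813 in batch a and -6.98 in batch b. Mirror minus control in input became 0.810, 0.186 and 0.585 under those settings, -3.81 in batch a and 3.27 in batch b, and in IP 0.329 under the last. The log2 ratio to intronic counts, IP minus input, was -0.59 (exact sign-flip p = 0.102), and became -0.56 without the 10 most abundant and -0.50 under the last setting (p = 0.00781 each). With all loci, the mean log2 change was 0.02 for the unannotated share and 0.61 for the intronic share. The intronic share was 1.76% in IP and 1.17% in input, higher in IP in 8 of 8 fish (exact sign-flip p = 0.00781, Benjamini-Hochberg p = 0.0609). The ratio to annotated counts turned from 0.01 (exact sign-flip p = 0.961) to -0.0448. Detection at the common depth, PC minus MC, became -947 for loci with at least 3 counts.

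Leaving out 1 fish gave 858 to 1056 calls for IP against input, 0 to 0 for each of the 3 interaction terms, 101 to 349 for PC against MC in input, 0 to 9 for the mirror in input, 0 to 5 for PC against MC in IP and 1 to 3 for the mirror in IP. Shares ranged from -0.578 to 0.449 for IP minus input, -4.76 to -2.83 and -5.44 to -2.82 for PC minus MC in input and IP, and -1.84 to 1.28 and -4.07 to -1.37 for the mirror. The log2 ratios ranged from -0.81 to -0.39 and -0.14 to 0.17, and detection from -3162 to -2837 and -1058 to -723. The mirror contrast in IP turned sign at MSTRG.3592 without PC fish 11 (6.87) and MC fish 22 (5.62), and at MSTRG.3591 without fish 11 (0.0571), over ranges of -9.97 to 6.87 and -1.65 to 0.0571. Over the named loci, 541 values under other settings kept their direction and status, called or not called. These include loci that the main fit did not call, which had no call to keep. A call was lost in 141 values and gained in 22. IP depth limits what can be seen: 3 counts are 0.268 to 1.60 CPM there and 0.127 to 0.298 CPM in inputs.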
